A study of Mus musculus with 12 samples.

Results

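The 6 libraries compared here came from cultured mouse hepatic stellate cells that carried floxed Hk2 alleles (Hk2 fl/fl) and received 1 of a pair of adenoviruses. In 3 of them the virus expressed Cre recombinase fused to the green fluorescent protein eGFP, which deletes Hk2 (KO), and in 3 the virus expressed eGFP alone (ACT). The groups were taken from the sample titles and treatment labels, and they make up 6 of the 12 libraries of the series. All 12081 genes of the deposited table enter the comparison. The other libraries of the series, used only to estimate the spread and for levels given as context, were 3 of freshly isolated cells without virus, called quiescent (QS), and 3 of KO cells that were given 10 mM lactate for 24 h (LAC). Every group had the genotype Hk2 fl/fl, every group came from liver by density gradient centrifugation, and KO, ACT and LAC cells had been cultured for 6 days. The labels give no age, do not say which exons Cre removes, and name no animal or culture for a library. P-values therefore measure the spread among libraries, which may be technical. Because Cre was present only in KO, an effect of the loss of Hk2 cannot be told apart from an effect of Cre itself, and both groups had been infected with adenovirus.

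Hepatic stellate cells are pericytes of the liver sinusoid that store vitamin A in lipid droplets. In injured liver, or on plastic, they activate into contractile myofibroblasts that secrete fibrillar collagen and are the main source of scar matrix. Hexokinases phosphorylate glucose as it enters the cell, and hexokinase 2 is the form that many activated and dividing cells raise when they rely on glycolysis. The comparison of KO with ACT asks which genes of the activated cell differ once Hk2 has been deleted.

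Levels are the authors' normalized CPM values, and are given for libraries 1, 2 and 3 of a group in that order, or as the mean ± SD of the 3. Log2 fold changes are KO against ACT on the log2(CPM + 1) scale, which understates changes of genes with few reads. A gene is said to rise or fall only if limma, fitted across all genes, gave an adjusted p under 0.05 (Benjamini-Hochberg). By this rule 4354 genes rose (36.0% of those tested) and 3179 fell (26.3%), so that 7533 were called in either direction (62.4%). Counts of list members below are to be read against these shares. At least 2-fold changes were fewer, with 1108 genes higher (9.17%) and 1181 lower (9.78%), and at 16-fold or more there were 58 rises and 199 falls. The 3 KO libraries did not overlap the 3 ACT libraries in 8365 genes (69.2%). The median log2 fold change over all genes was 0.07. KO libraries 2 and 3 were the shallowest of the 6: 3 reads were worth 0.494 and 0.427 CPM there and 0.212 to 0.26 CPM in the others. For this the smallest value shared by several genes of a library was taken as 1 read. Only 19.8 to 24% of the values in the 6 libraries were close to whole multiples of it, so the estimate is rough. Libraries of a group agreed closely, since above 200 CPM the typical gene varied by 2.04% of its mean in ACT and by 4.16% in KO.

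**Figure D1:**
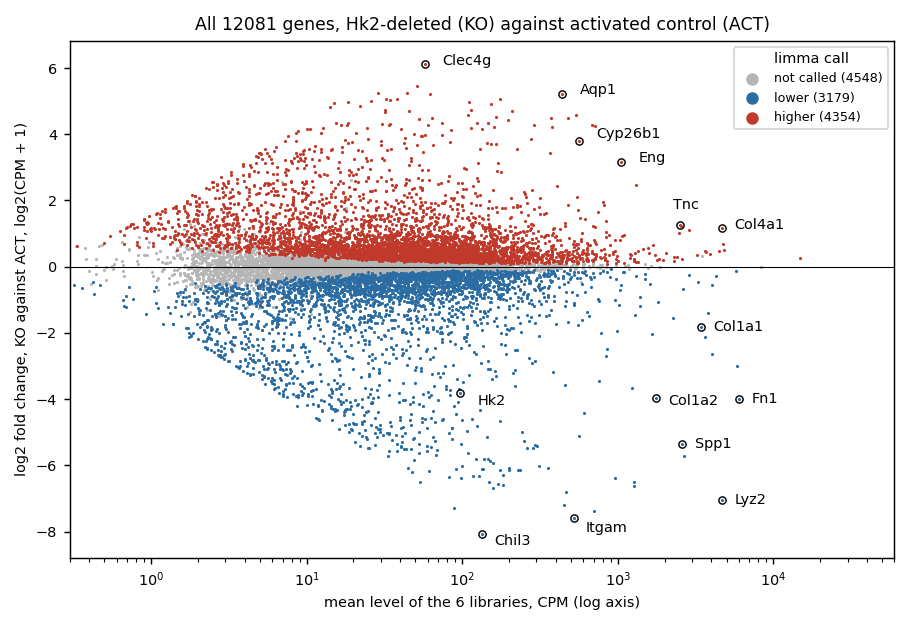
Every gene as a point, with the mean level of the 6 libraries in CPM on a log axis against the log2 fold change of KO against ACT; red points rose, blue points fell and grey points were not called. The falls reach further than the rises: Chil3, Itgam and Lyz2 lie below -7 and Clec4g, the highest, lies at 6.11.

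Hk2 (mm10, chromosome 6, 82725025 to 82774454, minus strand) stood at 181, 182 and 181 CPM in ACT and at 10.7, 13.7 and 11.9 CPM in KO. The groups were far apart, with a log2 fold change of -3.80 (SE 0.078, limma adjusted p = 2.25e-14), and a two-sided exact permutation test gave p = 0.10, the smallest that 3 against 3 libraries allow. The nearest measured neighbour, Pole4, a subunit of DNA polymerase epsilon that lies 19660 bases away, had 17.1 ± 2.35 CPM in ACT and 17.0 ± 1.60 CPM in KO and was not called. Of the 5 nearest measured genes on each side, Eva1a and Gm20594 rose, Dok1 and Htra2 fell, and the other 6 were not called. Htra2 was the smallest of these changes (log2 fold change -0.36) and Eva1a the largest (1.33). Of the other hexokinases, Hk1, the form found in most tissues, rose from 139, 134 and 136 CPM to 221, 199 and 207 CPM. Hk3, which is typical of myeloid cells, fell from 126, 133 and 135 CPM to 3.86, 2.31 and 1.58 CPM.

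Markers of other liver cells differed widely between KO and ACT, and they are given first because the values below were measured in the same RNA. Of 27 measured macrophage and myeloid markers, 26 fell and 1 rose (median -5.47 on the log2 scale). Their summed level was 21948 to 22330 CPM in the ACT libraries and 730 to 749 CPM in the KO libraries. Lyz2, the lysozyme of macrophages, stood at 9165, 9462 and 9423 CPM in ACT and at 70.3, 68.7 and 72.1 CPM in KO. Adgre1, which encodes the macrophage surface protein F4/80, stood at 365, 358 and 367 CPM in ACT and at 3.61, 2.19 and 2.71 CPM in KO. No macrophage marker was at 0 in a whole group. The exception among them was Mrc1, the mannose receptor, which sinusoidal endothelium also expresses and which rose (log2 fold change 1.18). Genes of lipid-associated and alternatively activated macrophages followed, with 14 of 15 lower and a summed level of 34462 to 34886 CPM in ACT and of 3986 to 4119 CPM in KO. Among them Chil3, a chitinase-like protein, was listed at 0 in all 3 KO libraries against 269 ± 2.82 CPM in ACT.

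Endothelial markers moved the other way, with 35 of 36 higher, a median log2 fold change of 3.76 and a summed level of 1250 to 1278 CPM in ACT and of 13053 to 14328 CPM in KO. Clec4g, a lectin of sinusoidal endothelium, had 0.354, 0.953 and 0.729 CPM in ACT and 109, 118 and 114 CPM in KO. Cdh5, the cadherin of endothelial junctions, had 68.0, 77.0 and 67.6 CPM in ACT and 1434, 1386 and 1248 CPM in KO. The exception was Vwf, the von Willebrand factor of larger vessels, which fell from 6.24 ± 1.53 to 1.5 ± 0.498 CPM. The list of hepatocyte genes had 32 of its 35 measured members higher and a median of 2.41, which was 3.89 with a pseudocount of 0.1 and 1.16 with one of 5. Their sum was 485 to 504 CPM in ACT and 851 to 897 CPM in KO, and Apoa2, Hpd and Gnmt were listed at 0 in all ACT libraries. Alb, the serum albumin of hepatocytes, had 11.2, 9.19 and 11.4 CPM in ACT and 154, 161 and 156 CPM in KO.

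Markers of mesothelium, the epithelium of the liver capsule, fell in 10 of 14 cases (median -2.44), from a sum of 538 to 574 CPM to one of 192 to 205 CPM. Wt1, a transcription factor of that layer, went from 77.6, 82.8 and 79.0 CPM to 1.18, 0.659 and 0.855 CPM, and Upk3b, a membrane plaque protein, from 58.4 ± 2.32 to 0.872 ± 0.395 CPM. Portal fibroblast and vascular smooth muscle markers fell in 10 of 13 cases (median -2.45), from 1718 to 1768 CPM to 524 to 535 CPM. Thy1, a surface protein of portal fibroblasts, went from 64.1 ± 0.771 to 3.41 ± 0.577 CPM, and Slit3, a secreted guidance protein, from 97.1 ± 2.97 to 0.716 ± 0.257 CPM. Of 30 markers of dendritic cells, neutrophils and lymphocytes only 6 were in the table, 3 higher and 3 lower. Resident Kupffer cell markers split, with 3 of 14 higher (Slc40a1, Clec1b and Cdh5) and 8 lower, and their sum was 730 to 738 CPM in ACT and 1551 to 1734 CPM in KO. Cdh5, an endothelial gene, carries that difference: without it the sum was 657 to 670 CPM in ACT and 296 to 303 CPM in KO. Of 9 cholangiocyte and epithelial markers 4 were higher and 3 lower, and their sum of 5100 to 5261 CPM in ACT and of 227 to 237 CPM in KO includes Spp1. The 12 markers of stellate cells that were chosen to check the label were all measured in both groups, at no less than 1.35 CPM in ACT and 10.0 CPM in KO, with 7 higher, 4 lower and Hand2 not called. In bulk RNA, fewer cells of a type and less RNA per cell cannot be told apart. What part these markers' cells have in the results below was not tested. The same holds for the levels of Hk2, Hk1, Hk3 and the neighbours of Hk2 given above.

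**Figure D2:**
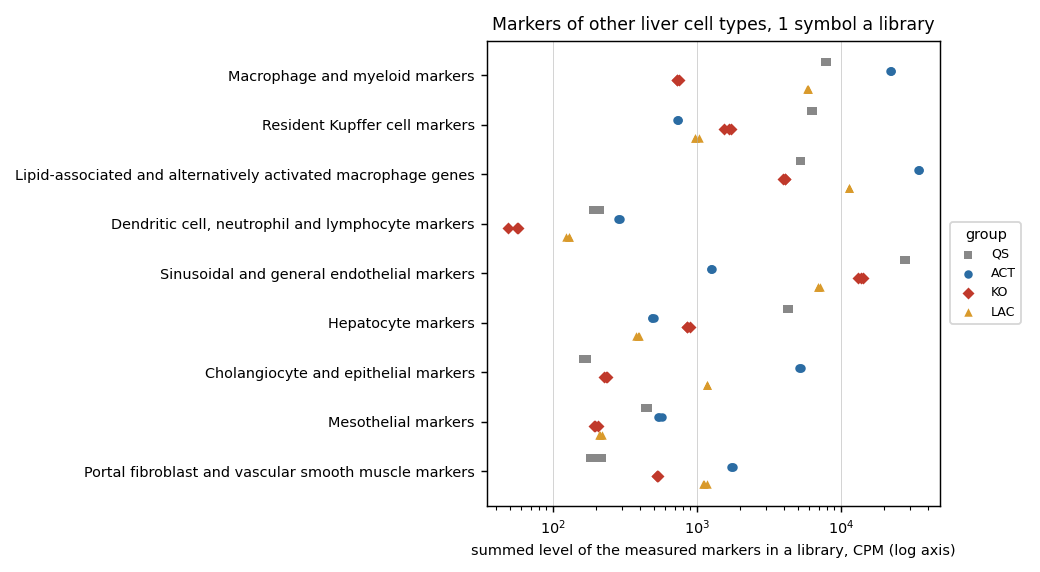
Summed level of each list of markers in CPM on a log axis, with 1 symbol for each library of the 4 groups. The macrophage sum of KO (730 to 749 CPM) lies below that of QS, ACT and LAC, and the endothelial sum of KO (13053 to 14328 CPM) lies above ACT and LAC and below QS.

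Fibrillar collagen genes were lower in KO. Of 9 measured chains 7 fell, 1 rose and 1, Col5a1, was not called, and the median log2 fold change was -1.47. Their summed level was 12702 to 12880 CPM in ACT and 3299 to 3589 CPM in KO. Col1a1 (chromosome 11, 94936224 to 94953042), a chain of type I collagen, the main protein of scar, had 5356, 5284 and 5383 CPM in ACT and 1573, 1481 and 1440 CPM in KO. Its partner chain Col1a2 (chromosome 6, 4504814 to 4541544) had 3316, 3284 and 3316 CPM in ACT and 210, 217 and 211 CPM in KO. The libraries of a group lay close together and the groups were far apart for both chains. The fall was deeper for Col1a2 (log2 fold change -3.95, SE 0.039, limma adjusted p = 1.11e-17) than for Col1a1 (-1.83, SE 0.041, limma adjusted p = 5.59e-14), a difference between genes that was not tested. Col3a1, the chain of type III collagen, fell from 1572 ± 13.2 to 408 ± 14.1 CPM, and Col5a2, a chain that starts fibrils, from 1909 ± 18.9 to 690 ± 32.6 CPM. Col24a1 fell by 2.38 on the log2 scale, and the chain that rose was Col27a1 (0.69).

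Of 9 measured collagens in a further list, which holds fibril-associated, beaded-filament and other types, 5 fell and 2 rose. The type VI chains Col6a1, Col6a2 and Col6a3 fell (log2 fold changes -0.70, -0.83 and -0.56), as did Col8a1 (-1.87) and Col8a2 (-2.32), whereas Col14a1 (1.16) and Col7a1, the anchoring fibril collagen (1.23), rose. Of 14 genes of the elastic fibre, 9 fell and 3 rose. Emilin2, a glycoprotein of elastic fibres, fell from 168 ± 2.68 to 3.70 ± 1.16 CPM, Ltbp2, a fibrillin-binding protein, from 467 ± 19.0 to 68.7 ± 2.49 CPM, and Fbn1, the main fibrillin, from 557 ± 8.05 to 403 ± 27.3 CPM. The rises were those of Ltbp1 (0.59), Emilin1 (0.95) and Ltbp4 (1.31). All 7 small leucine-rich proteoglycans, which bind collagen fibrils, were called, with Ogn (-3.06), Fmod (-2.82) and Dcn (-0.52) lower and Prelp (1.97), Ecm2 (1.62), Bgn (0.41) and Lum (0.27) higher, Lum with a call that was lost without KO replicate 2 or 3 or ACT replicate 2 or 3.

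Genes that process and crosslink collagen did not move together, since 8 of 22 rose (5 without KO replicate 1) and 7 fell, with a median of 0.03. The lysyl oxidases, which crosslink collagen and elastin, went in opposite directions. Lox fell from 537, 511 and 503 CPM to 64.4, 73.2 and 74.2 CPM, and Loxl1 from 63.2 ± 1.08 to 11.7 ± 2.09 CPM. Loxl4 rose from 32.7, 28.6 and 32.8 CPM to 156, 161 and 142 CPM. Loxl2, another of the family, had 1208 ± 14.8 CPM in ACT and 1157 ± 31.8 CPM in KO and was not called (log2 fold change -0.06, SE 0.033). Serpinh1, the collagen chaperone of the endoplasmic reticulum, had 1106 ± 14.7 and 1125 ± 35.5 CPM and was not called either.

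Basement membrane genes were higher in KO as a group, with 15 of 23 measured members higher, 4 lower and a median log2 fold change of 0.64. Col4a1 and its partner Col4a2 encode the type IV collagen of nearly every basement membrane. Col4a1 had 2847, 2907 and 2927 CPM in ACT and 6793, 6480 and 6098 CPM in KO (log2 fold change 1.16, SE 0.045), and Col4a2 rose by a similar 1.24. Nid1, the linker nidogen, rose from 1812 ± 13.6 to 3914 ± 88.6 CPM, and Lama1, a laminin chain, from 10.2 ± 0.397 to 60.7 ± 4.63 CPM. The 4 members that fell were Col4a6 (-4.26), Col15a1 (-4.19), Col4a5 (-2.35) and Lama2 (-2.02). Col4a5, which pairs with Col4a6 and lies beside it on the X chromosome, went from 300, 297 and 299 CPM to 63.4, 51.7 and 59.4 CPM. Endothelial cells also express Col4a1, Col4a2 and Nid1, and the endothelial marker sum rose in the same libraries (1250 to 1278 CPM in ACT, 13053 to 14328 CPM in KO). Its part in these rises was not tested.

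Among 19 adhesive and matricellular glycoproteins 9 rose and 7 fell. Fn1, fibronectin, had 11091, 11474 and 11446 CPM in ACT and 771, 732 and 650 CPM in KO, a log2 fold change of -3.98 (SE 0.054, limma adjusted p = 3.50e-16). Spp1, osteopontin, had 5120, 5148 and 4983 CPM in ACT and 121, 124 and 124 CPM in KO. The groups were far apart for these genes, both of which macrophages also express. Cthrc1, a secreted protein of activated fibroblasts, fell from 14.3 ± 0.277 to 0.316 ± 0.295 CPM. In the other direction, Tnc, the injury-associated tenascin C, had 1487, 1471 and 1482 CPM in ACT and 3709, 3562 and 3323 CPM in KO, a log2 fold change of 1.25 (SE 0.056, limma adjusted p = 1.12e-10). Ccn2, also called connective tissue growth factor, rose from 1133 ± 10.1 to 1561 ± 34.4 CPM, and Thbs2, a thrombospondin, from 22.6 ± 1.62 to 61.3 ± 3.60 CPM.

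Matrix proteases fell in 19 of 28 cases and rose in 7. The deepest falls were those of Mmp12, the macrophage elastase, from 2522 ± 62.7 to 27.1 ± 1.07 CPM, Adam8 from 701 ± 9.71 to 9.39 ± 0.332 CPM and Mmp9, a gelatinase, from 34.3 ± 2.26 to 0.612 ± 0.440 CPM. Macrophages express these 3 genes, and the macrophage marker sum fell in the same libraries. The stromelysins rose, Mmp3 from 34.4 ± 2.31 to 141 ± 4.72 CPM and Mmp10 from 133 ± 0.929 to 394 ± 24.1 CPM. Among 14 protease inhibitors 7 rose and 7 fell. Timp1, the inhibitor of metalloproteases best known from fibrotic liver, had 242, 234 and 234 CPM in ACT and 109, 98.7 and 96.4 CPM in KO (log2 fold change -1.22). Timp2 fell from 723 ± 7.48 to 229 ± 8.38 CPM, and Timp3 rose a little, from 1822 ± 27.2 to 2082 ± 32.1 CPM. The widest changes of the list were the rise of A2m, alpha-2-macroglobulin, from 1.2, 1.13 and 1.46 CPM to 74.6, 76.0 and 73.1 CPM, and the fall of Serpinf1 from 121 ± 2.11 to 0.791 ± 0.704 CPM. A2m was at 0.734 ± 0.456 CPM in QS and at 97.0 ± 2.35 CPM in LAC.

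Integrins, the receptors through which cells hold matrix, changed in both directions, with 6 of 15 subunits higher and 8 lower. Itga8, which pairs with beta 1 and marks stellate cells in the liver, rose from 5.45, 4.49 and 5.79 CPM to 61.3, 54.0 and 57.7 CPM, and the collagen receptor subunit Itga1 from 79.7 ± 5.17 to 252 ± 3.94 CPM. Itgav and Itgb5, which form a receptor that can activate latent TGF-beta, fell from 456 ± 8.55 to 252 ± 14.1 CPM and from 318 ± 2.33 to 84.0 ± 1.38 CPM. Itga11, the collagen receptor subunit of fibroblasts, fell from 8.47 ± 1.87 to 0.539 ± 0.513 CPM, while the common partner Itgb1 rose slightly (log2 fold change 0.30).

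**Figure D3:**
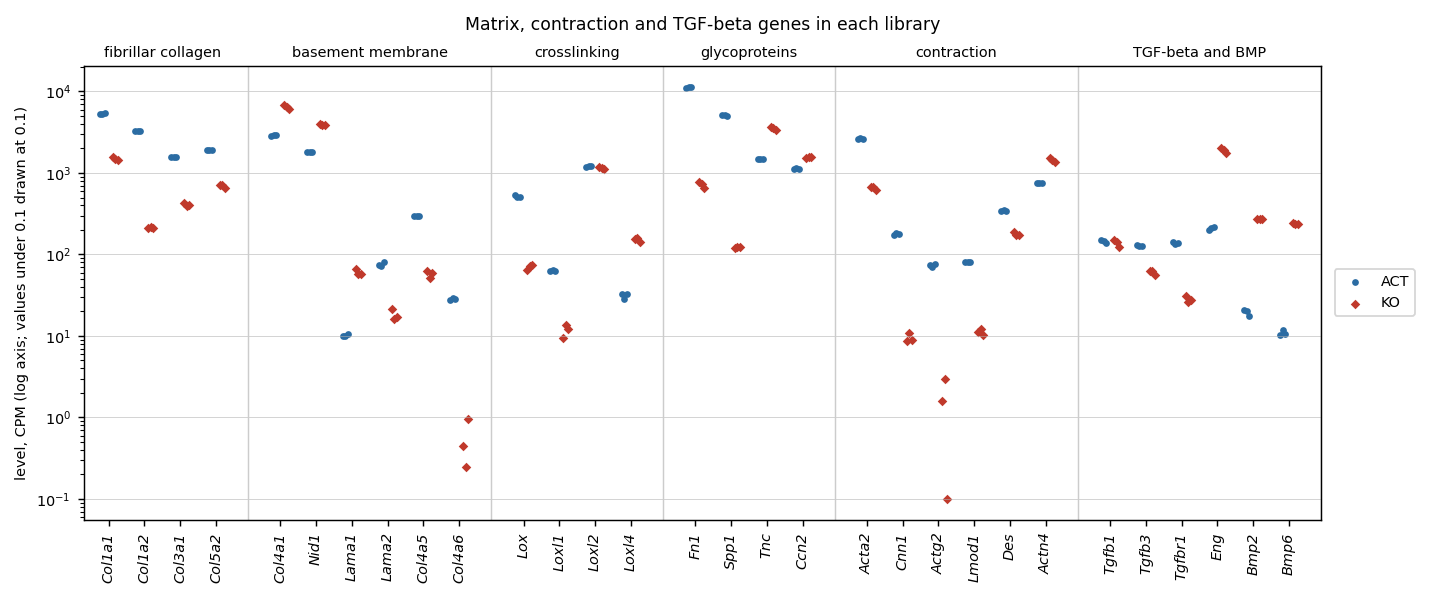
Level of matrix, contraction and TGF-beta genes in each library, in CPM on a log axis, with ACT as blue circles and KO as red diamonds. KO lies below ACT for the fibrillar collagens, Lox, Fn1 and Acta2 and above it for Col4a1, Nid1, Loxl4, Tnc, Eng and Bmp6, and the groups overlap for Tgfb1.

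Smooth muscle contractile genes, whose expression defines the myofibroblast, were lower in KO: 14 of 21 fell, 3 rose and the median log2 fold change was -0.96. In a refit on rescaled values without the markers of other cells and the mitochondrially encoded genes, 11 of 18 fell, 3 rose and the median was -0.71. Cnn1 and Actg2 are also in the list of portal fibroblast and vascular smooth muscle markers. That list's sum fell in the same libraries, and its part in these falls was not tested. Acta2 (chromosome 19, 34241090 to 34255590, minus strand), the smooth muscle actin, had 2624, 2711 and 2633 CPM in ACT and 675, 665 and 620 CPM in KO. The groups did not overlap, and the log2 fold change was -2.02 (SE 0.159, limma adjusted p = 6.37e-08). Cnn1, the calponin that binds actin and restrains myosin, fell from 171, 183 and 179 CPM to 8.61, 10.9 and 8.91 CPM, and Lmod1, which nucleates actin filaments, from 80.3 ± 0.411 to 11.1 ± 0.888 CPM. Actg2, another smooth muscle actin, had 73.8, 70.1 and 76.3 CPM in ACT and 1.61, 2.96 and 0 CPM in KO. Des, the intermediate filament of stellate cells, fell from 346 ± 4.07 to 177 ± 9.76 CPM. The rises included Ppp1r14a (1.25), which inhibits myosin phosphatase, and the myosin kinase Mylk (0.25). Acta2 in LAC stood at 1434 ± 33.7 CPM and in QS at 2.64 ± 1.18 CPM.

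Serum response factor acts on contractile genes through CArG boxes, and TEAD factors, the partners of YAP, bind GGAATG, so the start regions of the genes that fell were searched for both motifs on both strands. RefSeq promoter windows (GRCm38.p6, 250 bases before to 50 after the start) were found for 11 of the 14 genes, in 13 windows. A CArG box in its strict form, with no base off, was in Myl9 and in both windows of Ldb3, which overlap and share a single box, so that 2 of the 11 genes held one. Strict boxes were in 1.63% of all 32851 RefSeq windows and in 1.28% of the 12291 windows of genes measured here. GGAATG or its complement was in 4 of the 13 windows, in 14.7% of all RefSeq windows and in 12.1% of those of measured genes. Of the 8 windows of the contractile genes that did not fall, 1 held a strict CArG box and 4 held GGAATG. Boxes with exactly 1 base off the strict form, a search added after the data were seen, were in 19.9% of all windows and in 15.6% of those of measured genes. They were in 4 of the 13 windows of contractile genes that fell and in 1 of the 8 windows of those that did not. The window of Acta2 holds 2 of them and that of Myl9 at least 1, not marked below. The windows printed are those of Acta2, the defining myofibroblast gene, and of the genes with a strict CArG box, chosen after their values were seen, with the motif in capitals: Acta2 at chr19:34255324-34255623 (minus strand), Myl9 at chr2:156775214-156775513 (plus strand) and 1 window of Ldb3 at chr14:34588558-34588857 (minus strand). Sequences are in transcript direction, and a match of letters is a description and not a site.
Acta2: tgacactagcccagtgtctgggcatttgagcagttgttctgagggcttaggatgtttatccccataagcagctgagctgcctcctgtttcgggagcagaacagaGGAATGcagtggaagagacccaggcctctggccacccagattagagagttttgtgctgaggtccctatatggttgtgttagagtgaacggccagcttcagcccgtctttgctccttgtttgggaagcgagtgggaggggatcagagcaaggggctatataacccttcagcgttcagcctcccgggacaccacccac
Myl9: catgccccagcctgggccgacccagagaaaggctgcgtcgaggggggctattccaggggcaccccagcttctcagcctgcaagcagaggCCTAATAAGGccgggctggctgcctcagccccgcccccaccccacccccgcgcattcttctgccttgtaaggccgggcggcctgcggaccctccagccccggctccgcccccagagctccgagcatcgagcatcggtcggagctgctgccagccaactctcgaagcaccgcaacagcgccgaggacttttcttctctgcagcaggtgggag
Ldb3: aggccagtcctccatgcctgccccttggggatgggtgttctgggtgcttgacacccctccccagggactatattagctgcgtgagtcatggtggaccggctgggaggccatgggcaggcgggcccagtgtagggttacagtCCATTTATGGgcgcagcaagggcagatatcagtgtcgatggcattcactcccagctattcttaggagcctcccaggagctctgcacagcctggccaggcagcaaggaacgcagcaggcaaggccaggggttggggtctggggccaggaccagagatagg
The GGAATG of Acta2 begins at -146 from the start, the CArG box of Myl9 at -161 and that of Ldb3 at -109. Myl9, a myosin light chain, fell from 340 ± 9.20 to 185 ± 6.91 CPM, and Ldb3, a Z-disc protein, was listed at 0 in all KO libraries against 7.81 ± 0.444 CPM in ACT.

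Wider cytoskeletal targets of serum response factor moved less: 13 of 27 fell, 7 rose and the median was -0.13. Palld, which bundles actin in stress fibres, fell from 533 ± 12.3 to 214 ± 12.8 CPM and Flna, a filamin, from 3206 ± 84.0 to 2035 ± 294 CPM, whereas Actn4, an actinin, rose from 757, 750 and 745 CPM to 1548, 1453 and 1353 CPM. Of 24 genes of YAP, TEAD and their targets, 13 were higher and 6 lower (median 0.31). Yap1 itself went from 134 ± 4.11 to 168 ± 2.14 CPM and Tead4 from 4.35 ± 0.341 to 20.9 ± 0.766 CPM. The largest rise of the list was Nt5e, the ecto-nucleotidase CD73 of stellate cells and portal fibroblasts, from 22.6, 23.1 and 24.1 CPM to 179, 189 and 194 CPM. Ankrd1, a target used as a readout of YAP, fell from 431 ± 6.43 to 314 ± 2.14 CPM, and Igfbp3 from 228 ± 1.02 to 120 ± 1.08 CPM.

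Ligands of the TGF-beta, activin and BMP families went both ways, with 9 of 17 measured members higher and 5 lower. Tgfb1, the isoform held to be the main fibrogenic signal, had 151, 146 and 138 CPM in ACT and 152, 144 and 124 CPM in KO, which overlap (log2 fold change -0.06, SE 0.077, limma adjusted p = 0.535). Tgfb3 fell from 129, 126 and 128 CPM to 63.5, 62.5 and 56.7 CPM, Tgfb2 from 62.5 ± 1.93 to 36.2 ± 1.46 CPM, and Inhba, the subunit of activin A, from 433 ± 8.23 to 286 ± 11.2 CPM. Bmp6, which controls hepcidin and is made by sinusoidal endothelium, went from 10.2, 12 and 10.6 CPM to 243, 239 and 234 CPM, and Bmp2 from 20.9, 20.1 and 17.3 CPM to 272, 269 and 270 CPM. Gdf2 and Bmp10, ligands of the endothelial receptor ALK1 that liver stellate cells secrete, rose from 2.88 ± 0.293 to 42.5 ± 4.0 CPM and from 100 ± 2.08 to 351 ± 15.5 CPM.

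Among 13 receptors 9 rose and 3 fell. Tgfbr1, the kinase that signals for all TGF-beta isoforms, fell from 143, 135 and 137 CPM to 31.2, 26.5 and 27.5 CPM (log2 fold change -2.25, SE 0.071, limma adjusted p = 2.63e-12). Tgfbr2, its partner, was nearly level at 181 ± 2.11 and 196 ± 4.27 CPM, though called higher. Eng, endoglin, a co-receptor of endothelial and activated stellate cells, rose from 200, 211 and 216 CPM to 2011, 1909 and 1740 CPM, and Acvrl1, which encodes ALK1, from 26.4 ± 1.11 to 58.9 ± 4.95 CPM. The endothelial marker sum rose in the same libraries, and its part in the rises of Bmp2, Bmp6 and Eng was not tested. Of 24 Smad genes and inhibitors 9 rose and 11 fell. The inhibitory Smad7 rose from 61.2 ± 3.12 to 113 ± 12.6 CPM, Smad6 from 29.4 ± 2.98 to 53.7 ± 4.44 CPM and Smurf2, which degrades receptors, from 151 ± 3.29 to 308 ± 7.54 CPM. The secreted antagonists Grem1 and Fst fell, with log2 fold changes of -2.40 and -2.38.

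Growth factor signals were more often higher than lower in KO. Of 19 genes of the PDGF, FGF and EGF families, 11 rose and 4 fell. Pdgfrb, the receptor through which stellate cells proliferate, rose from 97.4, 93.9 and 95.8 CPM to 139, 132 and 130 CPM, and Pdgfra was not called at 235 ± 3.37 and 229 ± 2.12 CPM. Pdgfb, the ligand, rose from 26.1 ± 1.33 to 91.9 ± 8.06 CPM. Hgf, hepatocyte growth factor of quiescent stellate cells, rose from 21.4 ± 1.07 to 67.6 ± 3.40 CPM while its receptor Met fell from 117 ± 1.66 to 29.7 ± 5.10 CPM. All 15 genes of VEGF and angiopoietin signalling were called, 13 higher and 2 lower, with a median of 1.40. In the rescaled refit, without the 5 that are also markers of other cells, 8 of 10 were higher and the median was 0.49. The endothelial marker sum rose in the same libraries, and its part was not tested. Angpt2, which loosens vessels, rose from 17.7, 15.5 and 15.8 CPM to 376, 382 and 369 CPM, and Kdr, the VEGF receptor of endothelium, from 27.4 ± 1.77 to 548 ± 19.4 CPM, while Vegfa fell from 151, 151 and 153 CPM to 84.8, 71.3 and 80.5 CPM and Vegfd by 1.86 on the log2 scale. Of 15 genes of IGF signalling 7 were higher and 6 lower. Igf1, an insulin-like growth factor that macrophages also make, fell from 342, 341 and 325 CPM to 11.6, 11 and 14.8 CPM, and Igfbp7 rose from 258 ± 2.36 to 849 ± 18.9 CPM.

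Notch genes were called in all 14 cases, 11 higher and 3 lower, with a median of 0.72. In the rescaled refit, without members that are also markers of other cells, 10 of 13 were higher, 3 were lower and the median was 0.46. Nrarp, a feedback target of Notch, rose from 2.12, 1.13 and 1.31 CPM to 62.2, 63.9 and 61 CPM, Dll4, a ligand of endothelium, from 0.778 ± 0.507 to 16.5 ± 0.718 CPM and Notch1 from 46.5 ± 2.31 to 212 ± 17.9 CPM. The falls were Lfng (-1.68), Rbpj, the DNA-binding partner of Notch (-0.97), and Notch2 (-0.93). Wnt and Hedgehog genes split evenly, 13 higher and 12 lower of 29: Wnt2 of sinusoidal endothelium rose from 4.30 ± 0.195 to 35.1 ± 1.39 CPM, and Wnt4 fell from 98.1 ± 1.54 to 10.4 ± 1.86 CPM. Ror2, a Wnt receptor, was listed at 0 in all KO libraries against 6.34, 7.52 and 8.16 CPM in ACT. Vasoactive genes rose in 14 of 29 cases and fell in 11. Edn1, endothelin 1, which contracts stellate cells, rose from 32.2, 36.9 and 31.6 CPM to 292, 303 and 318 CPM and its receptor Ednrb from 27.1 ± 2.29 to 161 ± 5.46 CPM. Npr1, the receptor of atrial natriuretic peptide, rose from 6.11 ± 0.680 to 142 ± 2.11 CPM. Ptgis, the prostacyclin synthase, fell from 132 ± 7.39 to 32.1 ± 1.57 CPM, and Ptgs2, the inducible cyclooxygenase, was not called. The endothelial marker sum rose in the same libraries, and its part in the rises of Dll4, Notch1, Wnt2, Edn1 and Npr1 was not tested.

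Genes of quiescent stellate cells and pericytes were nearly all higher in KO, with 27 of 31 up, 4 down and a median log2 fold change of 1.93. Rgs5, a pericyte marker, had 8.63, 8.67 and 8.09 CPM in ACT and 80.8, 88.0 and 88.7 CPM in KO. Vipr1, a receptor of vasoactive intestinal peptide, had 0.424, 0.607 and 0.219 CPM in ACT and 24.0, 25.2 and 25.5 CPM in KO, and Colec10, a secreted lectin, had 0.176 ± 0.105 and 10.1 ± 0.288 CPM. Freshly isolated cells stood far above KO for both, with 318 ± 11.8 CPM of Vipr1 and 503 ± 11.5 CPM of Colec10. The 4 members that fell were Cspg4, which encodes the pericyte proteoglycan NG2 and was listed at 0 in all KO libraries, Des (-0.96), Steap4 (-0.88) and Gucy1a1 (-0.70). Some of these genes are not confined to stellate cells, and Plvap, the second largest rise (4.16), is also in the endothelial list. Hepatocyte and endothelial marker sums rose in the same libraries, and their part was not tested.

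Vitamin A genes rose in 14 of 22 cases and fell in 4. Lrat, the enzyme that esterifies retinol for storage, had 3.75, 3.03 and 2.48 CPM in ACT and 16.6, 19.9 and 15.5 CPM in KO, against 352 ± 11.4 CPM in QS. Cyp26b1, which degrades retinoic acid, rose from 74.5, 72.4 and 75.4 CPM to 1076, 1053 and 1006 CPM (log2 fold change 3.80, SE 0.035, limma adjusted p = 6.22e-18). Bco1, which splits beta-carotene, rose from 203 ± 4.58 to 748 ± 29.2 CPM. Aldh1a2, which makes retinoic acid and is a marker of mesothelium, fell from 35.5 ± 1.41 to 1.91 ± 0.245 CPM. Among 32 transcription factors of the lineage 17 rose and 11 fell. Gata4, which restrains stellate activation, rose from 33.5, 38.3 and 35.4 CPM to 192, 202 and 203 CPM, Lhx2, another such factor, from 5.02 ± 1.21 to 21.6 ± 1.82 CPM, Nr5a2 from 2.36 ± 0.128 to 47.2 ± 1.52 CPM and Ets1 from 92.1 ± 1.23 to 467 ± 25.0 CPM. In the same libraries the endothelial marker sum rose, and its part in these rises was not tested. Prrx1 and Runx1, factors of activated mesenchyme, fell from 87.3 ± 3.97 to 24.7 ± 1.84 CPM and from 75.6 ± 2.02 to 20.2 ± 2.29 CPM.

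**Figure D4:**
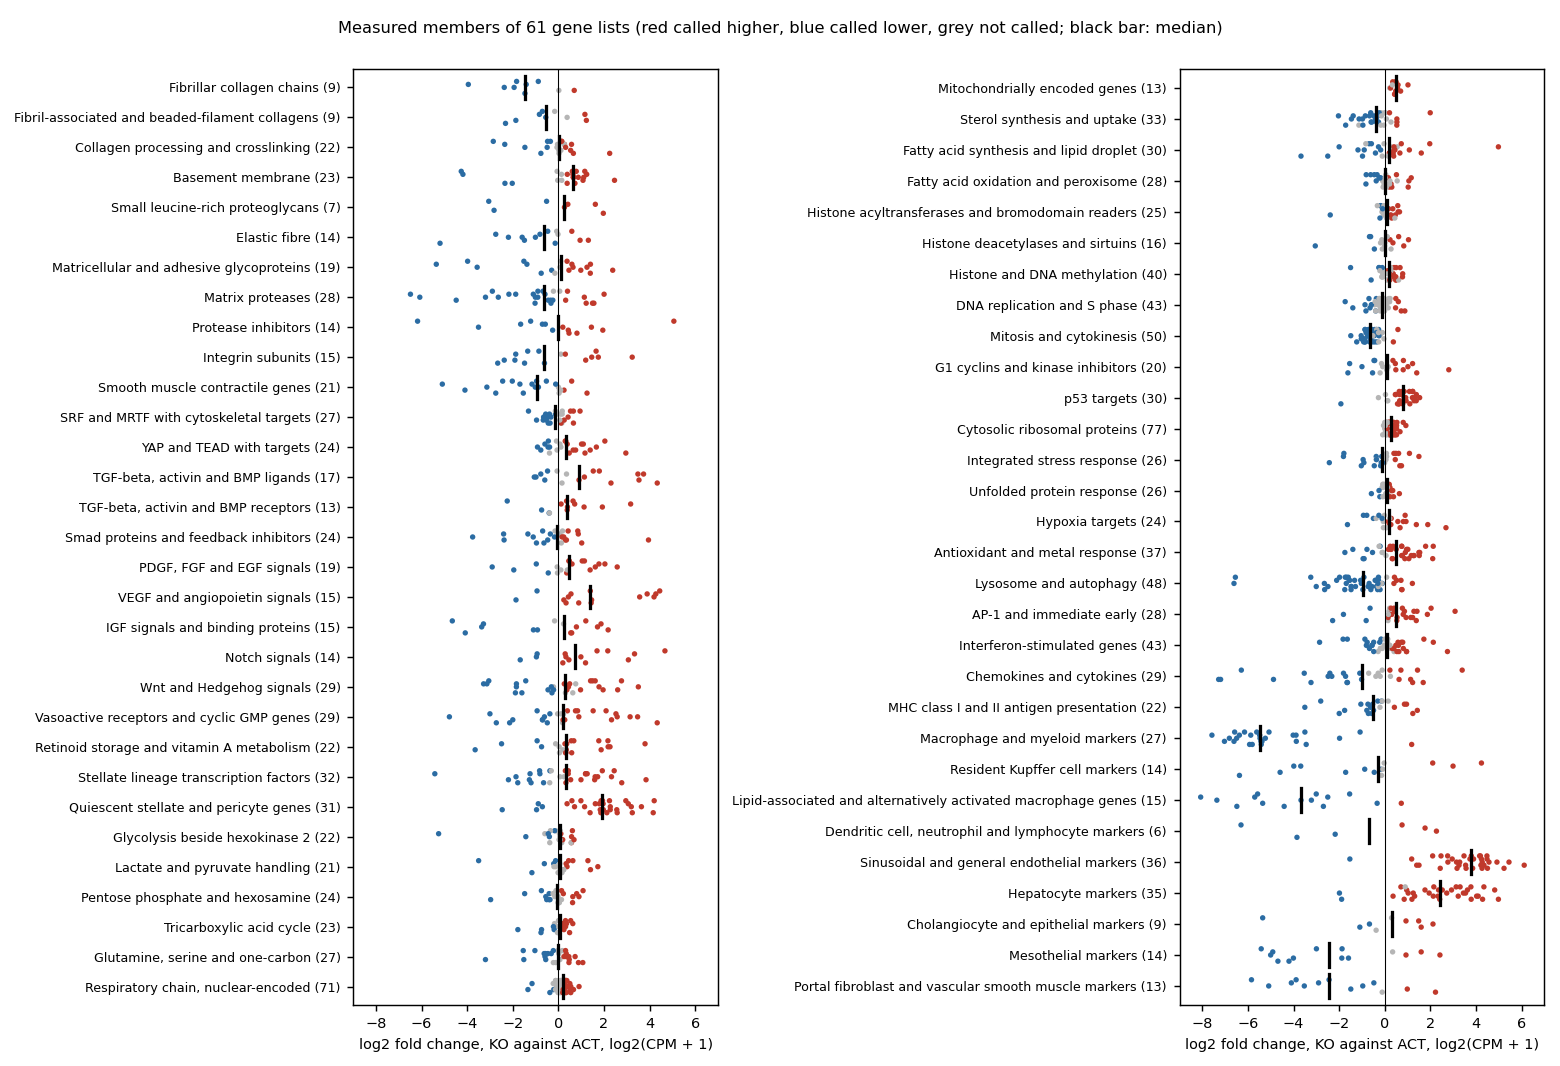
Log2 fold change of every measured member of the 61 gene lists, 1 row for each list with its number of members in brackets, red for higher, blue for lower and grey for not called, with a black bar at the median. The medians lie farthest from 0 for macrophage (-5.47) and endothelial markers (3.76), at -1.47 for fibrillar collagens and 1.93 for quiescent stellate genes, and close to 0 for glycolysis.

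Of 22 other genes of glycolysis 6 rose, 5 fell and 11 were not called, with a median of 0.05, and the deepest fall was that of Hk3 (-5.25). Pgk1, phosphoglycerate kinase, had 522, 509 and 510 CPM in ACT and 729, 779 and 784 CPM in KO. Pfkfb3, which sets the activator of phosphofructokinase, rose from 76.6 ± 4.77 to 115 ± 2.70 CPM and Gapdh from 1665 ± 58.9 to 1897 ± 90.6 CPM, while Tpi1, triose phosphate isomerase, fell from 288 ± 13.4 to 219 ± 8.27 CPM. Pkm, the pyruvate kinase of proliferating cells, was not called at 1455 ± 21.8 and 1534 ± 38.4 CPM. It was called higher under equal totals, equal medians, quantile normalization or library weights, and without KO replicate 3. In the handling of lactate and pyruvate 7 of 21 rose and 5 fell. Ldha, which reduces pyruvate to lactate, was slightly lower, with 640, 632 and 651 CPM in ACT and 582, 586 and 596 CPM in KO (log2 fold change -0.12, SE 0.032, limma adjusted p = 0.00414). The lactate exporter Slc16a3 fell from 34.9, 35.7 and 36.7 CPM to 15.4, 16.6 and 14.2 CPM, and the carrier Slc16a7 from 19.6 ± 1.53 to 0.833 ± 0.293 CPM. Pdk4, which shuts pyruvate dehydrogenase, rose from 39.5 ± 0.732 to 133 ± 5.21 CPM, and Pcx, which carboxylates pyruvate, from 12.9 ± 2.12 to 32.8 ± 2.19 CPM.

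Branches from glycolysis were mixed, with 7 of 24 genes of the pentose phosphate and hexosamine routes higher and 8 lower. Taldo1, transaldolase, rose from 309 ± 4.90 to 539 ± 23 CPM and Ugdh, which makes UDP-glucuronate for matrix sugars, from 233 ± 5.92 to 435 ± 10.6 CPM, whereas Has2, the hyaluronan synthase, fell from 34.9 ± 2.12 to 11.9 ± 0.855 CPM. Tricarboxylic acid cycle genes rose in 11 of 23 cases (7 without ACT replicate 1) and fell in 5. Idh1, the cytosolic isocitrate dehydrogenase, fell from 248, 270 and 261 CPM to 70.1, 76.4 and 78.5 CPM. In glutamine, serine and one-carbon metabolism 10 of 27 rose and 11 fell: the glutamine carrier Slc38a1 went from 143, 129 and 139 CPM to 13.3, 15.1 and 13.6 CPM, its relative Slc38a2 rose from 343 ± 3.09 to 632 ± 32.2 CPM, and the mitochondrial aminotransferase Got2 rose from 168 ± 5.61 to 354 ± 12.1 CPM. Of 71 nuclear genes of the respiratory chain 30 rose and 4 fell, with a small median of 0.18, and the falls came to 2 without ACT replicate 2 and to 1 without ACT replicate 3. Atp5b, the beta subunit of ATP synthase, rose from 773 ± 11.6 to 993 ± 13.6 CPM. Of the 13 genes encoded in mitochondria 11 rose, most of all mt-Nd2, from 1743, 1718 and 1465 CPM to 3586, 3070 and 3297 CPM.

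Several lipid genes that fell are also macrophage genes. Lpl, lipoprotein lipase, went from 2375, 2277 and 2270 CPM to 176, 173 and 190 CPM and Fabp5, a fatty acid binding protein, from 382 ± 11.8 to 66.6 ± 4.84 CPM, and both are in the list of lipid-associated macrophage genes. Plin2, which coats lipid droplets, fell from 1236, 1236 and 1257 CPM to 318, 310 and 300 CPM. Sterol synthesis and uptake fell in 19 of 33 cases and rose in 5, with a median of -0.37. Abca1, which exports cholesterol, fell from 308 ± 7.92 to 74.6 ± 6.34 CPM and Npc2, which moves it out of lysosomes, by 1.46 on the log2 scale, and Mylip, which degrades the LDL receptor, rose from 10.6 ± 0.903 to 44.9 ± 2.31 CPM. Fatty acid synthesis (13 of 30 higher, 11 lower) and oxidation (8 of 28 higher, 9 lower) had no common direction. Cpt1a, the gate to mitochondrial oxidation, fell from 227 ± 6.45 to 129 ± 7.84 CPM.

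Enzymes that write, read and erase histone marks went both ways. Of 25 acyltransferases and bromodomain readers 8 rose, 5 fell and 12 were not called. The falls came to 1 without KO replicate 3, to 2 without ACT replicate 2 or 3 and to 3 without KO replicate 2. Ep300, the acetyltransferase p300, had 120, 124 and 117 CPM in ACT and 116, 105 and 96.0 CPM in KO (log2 fold change -0.19, SE 0.061, limma adjusted p = 0.0151), and its relative Crebbp, at 77.7 ± 2.96 and 88.2 ± 10.7 CPM, was not called. Neither call is stable: without KO replicate 3 limma gave an adjusted p of 0.0724 for Ep300 and of 0.0185 for Crebbp, and without ACT replicate 2 it gave 0.0573 for Ep300. With all libraries, limma called Crebbp higher under equal totals (adjusted p = 0.0241), equal medians (0.0416), library weights (0.0215) and the replicate block (0.0147). Brd2, a bromodomain protein, rose from 170 ± 9.65 to 255 ± 16.6 CPM. Of 16 deacetylases and sirtuins 5 rose and 4 fell (2 without KO replicate 2, ACT replicate 2 or ACT replicate 3). Hdac1 rose from 85.7 ± 3.97 to 131 ± 8.88 CPM and Hdac7, a form of endothelial cells, from 33.9 ± 2.04 to 70.9 ± 8.19 CPM, while Hdac9 fell from 10.8 ± 0.792 to 0.430 ± 0.189 CPM. In histone and DNA methylation 17 of 40 rose and 5 fell (3 without KO replicate 1), and the methyltransferase Dnmt3a fell from 215, 221 and 210 CPM to 84.9, 73.0 and 68.7 CPM.

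Genes of mitosis were lower in KO, with 39 of 50 down, 2 up and a median log2 fold change of -0.63. Mki67, the proliferation marker Ki-67, had 311, 316 and 315 CPM in ACT and 140, 132 and 127 CPM in KO (log2 fold change -1.23, SE 0.049, limma adjusted p = 3.08e-11). Top2a, the topoisomerase of dividing cells, fell from 222, 219 and 218 CPM to 120, 123 and 119 CPM, and Ccnb1, cyclin B1, from 52.9 ± 1.76 to 25.3 ± 2.02 CPM. The 2 rises were Pttg1 (0.57) and Ckap2 (0.37). In QS, Mki67 stood at 41.4 ± 2.70 CPM. In the DNA replication list 11 of 43 fell, 6 rose and 26 were not called. Tk1, thymidine kinase, fell from 23.1 ± 2.28 to 6.23 ± 0.691 CPM, but Rrm2, a subunit of ribonucleotide reductase, rose from 93.4 ± 6.15 to 155 ± 9.47 CPM and Ccne1, cyclin E1, from 23.7 ± 1.55 to 44.3 ± 1.96 CPM. The shares of the mitosis and replication lists were not tested against each other. Which cells divided cannot be read from bulk RNA.

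Targets of p53 were higher in KO, where 25 of 30 rose and Sesn1 fell (Rrm2b too without KO replicate 1 or 3), with a median of 0.78. Cdkn1a, the kinase inhibitor p21, had 275, 275 and 279 CPM in ACT and 660, 643 and 629 CPM in KO (log2 fold change 1.22, SE 0.034, limma adjusted p = 7.86e-13). Ccng1, cyclin G1, had 700, 685 and 683 CPM in ACT and 1085, 1029 and 1132 CPM in KO. The libraries of KO lay above those of ACT for each. Gdf15, a stress cytokine, rose from 5.81 ± 0.797 to 18.6 ± 2.05 CPM, Xpc, a repair protein, from 18.3 ± 0.780 to 49.3 ± 1.60 CPM and Trp53inp1 from 46.2 ± 3.58 to 114 ± 4.74 CPM. Sesn1, a sestrin, went from 65.4 ± 5.71 to 16.4 ± 1.18 CPM, and Mdm2, Tigar, Pmaip1 and Rrm2b were not called. Cre and its target sites were shared by LAC, where Cdkn1a stood at 546 ± 22.5 CPM and Ccng1 at 1268 ± 34.0 CPM, and in QS, without virus or culture, they stood at 223 ± 2.99 and 107 ± 4.81 CPM. An effect of Cre on these genes cannot be told apart from that of Hk2. Among G1 regulators Ccnd1, cyclin D1, rose from 293 ± 4.03 to 517 ± 14.1 CPM and Cdkn1c, the inhibitor p57, from 0.863 ± 0.112 to 12 ± 0.440 CPM. Ribosomal protein genes rose in 58 of 77 cases and none fell by the test, with a median of 0.27, and Rps2 had 739, 750 and 760 CPM in ACT and 1314, 1354 and 1273 CPM in KO.

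**Figure D5:**
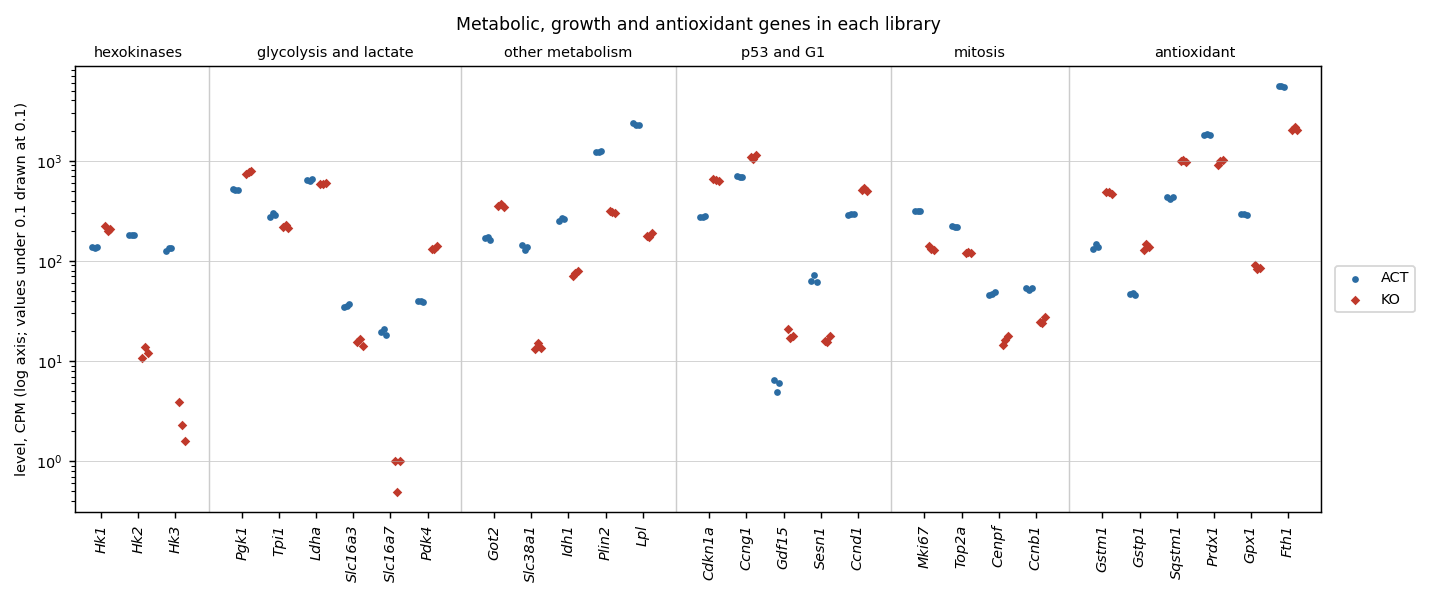
Level of hexokinase, metabolic, growth and antioxidant genes in each library, in CPM on a log axis, with ACT as blue circles and KO as red diamonds. Hk2 and Hk3 are at 1.58 to 13.7 CPM in KO, Ldha differs little, Cdkn1a and Ccng1 lie higher in KO and the 4 mitosis genes lie lower.

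Antioxidant genes rose in 26 of 37 cases and fell in 7, with a median of 0.50. The glutathione transferases Gstm1 and Gstp1 rose from 132, 147 and 139 CPM to 492, 491 and 468 CPM and from 46.7 ± 0.838 to 137 ± 8.86 CPM. Nqo1, a quinone reductase, Srxn1, sulfiredoxin, and Hmox1, heme oxygenase 1, were chosen after their values were seen and rose from 83.9 ± 1.91 to 189 ± 8.26 CPM, from 161 ± 7.46 to 394 ± 2.90 CPM and from 584 ± 12 to 1090 ± 40.2 CPM. Sqstm1, an autophagy receptor, rose from 433, 417 and 435 CPM to 996, 1018 and 962 CPM. The falls were in Gpx1, a glutathione peroxidase, from 293 ± 2.91 to 86.3 ± 3.47 CPM, Fth1, the heavy chain of ferritin, from 5515, 5536 and 5480 CPM to 2044, 2187 and 2025 CPM, and Prdx1, a peroxiredoxin, from 1816 ± 16.9 to 969 ± 61.5 CPM, and also in Sod2 (-0.95), Cp (-0.78), Ftl1 (-0.54) and Prdx2 (-0.21).

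Other stress programmes differed, split for the integrated stress response and with more rises than falls for unfolded protein, hypoxia and early response genes. The integrated stress response rose in 8 of 26 cases and fell in 13, with Atf3 lower (from 115 ± 3.81 to 32.0 ± 2.50 CPM) and Ppp1r15a, which reverses the block of translation, higher (from 39.1 ± 0.659 to 112 ± 5.24 CPM). The unfolded protein response rose in 11 of 26 and fell in 3, and the chaperone Hspa5 changed only from 1277 ± 30.2 to 1407 ± 42.9 CPM. Of 24 hypoxia targets 12 rose and 6 fell. Ndrg1 and Adm, the vasodilator adrenomedullin, rose from 13.4 ± 1.31 to 91.2 ± 3.21 CPM and from 39.2 ± 0.943 to 148 ± 4.78 CPM, Hif1a fell from 315 ± 8.44 to 222 ± 14.1 CPM and Epas1, which encodes HIF-2 alpha, rose from 233 ± 3.20 to 446 ± 23.4 CPM. Early response genes rose in 20 of 28 cases and fell in 4 (Egr2, Atf3, Klf10 and Fos). Fosl1, an AP-1 subunit, rose from 22.2, 24.2 and 23 CPM to 98.5, 86.2 and 77.3 CPM.

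Lysosome and autophagy genes were lower in 38 of 48 cases and higher in 7, with a median of -0.94 and a summed level of 41630 to 42291 CPM in ACT and of 12309 to 12548 CPM in KO. Ctsd, the protease cathepsin D, had 10318, 10297 and 10543 CPM in ACT and 1322, 1286 and 1262 CPM in KO. Psap, the precursor of saposins, fell from 6965 ± 177 to 1117 ± 24.3 CPM, Ctsb from 5902 ± 104 to 1364 ± 15.7 CPM and Mitf, a factor that controls lysosome genes, from 46.2 ± 1.26 to 6.52 ± 0.571 CPM. Macrophages are rich in lysosomes, and Ctsd and Ctss are in the macrophage lists. The macrophage marker sum fell in the same libraries, from 21948 to 22330 CPM to 730 to 749 CPM, and its part in these falls was not tested. Besides Sqstm1, the rises included the autophagy gene Map1lc3b, from 120 ± 0.649 to 200 ± 7.86 CPM.

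Inflammatory genes fell more than they rose. Of 29 chemokines and cytokines 15 fell and 8 rose, with a median of -1.02. Saa3, an acute phase protein, had 167, 185 and 182 CPM in ACT and 0, 0.165 and 0.285 CPM in KO, and Il1rn, the interleukin 1 receptor antagonist, fell from 115 ± 4.82 to 2.94 ± 0.188 CPM, both genes that myeloid cells express. Il11, a fibrogenic cytokine of stromal cells, rose from 0.617, 1.05 and 0.587 CPM to 14.5, 21 and 16.9 CPM and Lif, a relative of it, from 14.6 ± 0.469 to 41.2 ± 2.88 CPM. Csf1, on which macrophages depend, was higher in KO, with 1164, 1163 and 1181 CPM in ACT and 1397, 1389 and 1310 CPM in KO. Of 43 interferon-stimulated genes 15 were higher and 13 lower. Antigen presentation genes fell in 14 of 22 cases and rose in 5: H2-D1, a class I heavy chain, fell from 629 ± 13.6 to 303 ± 18.5 CPM, and H2-Q4 rose from 16.7 ± 1.65 to 46.3 ± 1.62 CPM.

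Several of the largest single changes were of genes that other liver cells express. Among the 10 greatest rises by log2 fold change were Clec4g, the orphan receptor Gpr182 (1.33 ± 0.320 to 100 ± 7.11 CPM), the water channel Aqp1 (22 ± 1.28 to 860 ± 8.75 CPM), Clec14a and Robo4 of endothelium, A2m, and the urinary protein gene Mup7, whose reads may be shared with near-identical copies. The 10 greatest falls included Itgam, Chil3, Lyz2, Cybb, Ctss, Adgre1 and Arg1, the arginase of alternatively activated macrophages, which went from 1408, 1385 and 1376 CPM to 6.80, 6.92 and 8.68 CPM. By difference in CPM, which also depends on the length of a gene, the greatest rises included Eng, Selenop, Tnc, Col4a1 and mt-Nd2, and the greatest falls Lyz2, Fn1, Ctsd, Gpnmb, Spp1 and Col1a1. Selenop, a selenium carrier secreted by liver cells, rose from 417, 409 and 379 CPM to 2236, 2080 and 2334 CPM. Gpnmb, a glycoprotein of lipid-laden macrophages, fell from 5096, 5309 and 5192 CPM to 104, 102 and 90.1 CPM.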

How the data were processed

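Poly(A) RNA libraries were made with a stranded mRNA kit, per the labels' protocols. The submitters' processing notes name FastQC 0.11.8, cutadapt 1.18, kallisto 0.44.0, edgeR 3.8 and the build mm10. The deposited table holds 1 normalized signal for each gene and library, which its unit calls CPM; the authors' scaling is not given in the sources used here, and whole reads could not be recovered. Here limma 3.58.1 (R 4.3.3) was fitted on log2(CPM + 1) with a mean for each of 4 groups over 12 libraries, 8 residual degrees of freedom and an intensity trend, after a filter of 1 CPM in 3 libraries that every gene passed, with Benjamini-Hochberg adjustment over all 12081 genes. It was tested on data simulated with independent normal noise. For simulated log2 changes of -2, -1, 1 and 2 it recovered 48, 40, 46 and 50 of 50 genes, and 12 unchanged genes were called. Such data cannot show whether the real libraries are independent. Tables and plots used Python 3.11.15, pandas 2.3.3 and matplotlib 3.10.9. Members and lists were chosen with earlier results of these data known: 61 lists, with 1537 of 1708 members measured. Named genes were the 10 largest rises and falls by log2 fold change and by CPM difference, in each list up to 5 in each direction and the 3 highest, a fixed set around Hk2, fibrosis and lactate, and the neighbours of Hk2. Apoa2, Hpd, Gnmt, Col5a1, Hand2, Mdm2, Tigar, Pmaip1, Rrm2b, Prdx2, Myl9, Nqo1, Srxn1 and Hmox1 fall outside that rule and were named after their values were seen. Positions are from GENCODE M21 (mm10), with 1 position for 11887 genes, and promoters from RefSeq (GRCm38.p6). Alternatives changed the pseudocount, filter, scaling, fit, threshold and libraries.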

Additional observations from a re-analysis of the deposited data

How the results depend on the processing

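Under the 20 alternatives the counts of genes that rose and fell stayed within 1.5 times the reported 4354 and 3179, and Hk2 stayed lower. The alternative with no further filter could not differ, because every gene had passed the filter. A threshold of 0.01 reused the reported fit, so no fold change could move under it. Leaving out 1 library at a time gave 4006 to 4183 rises, 2911 to 3075 falls and a log2 fold change of Hk2 of -3.89 to -3.73. Equal totals gave 4646 rises and 3017 falls, and leaving out the marker genes of other cells gave 4167 and 3146. That last fit also left out the mitochondrially encoded genes and rescaled each library to equal totals over the genes that remained. KO and ACT libraries carry the same numbers, but same-numbered libraries did not deviate together (correlations -0.0422, -0.0088 and -0.0198), and a fit with the replicate block gave 4365 rises and 3177 falls and a log2 fold change of Hk2 of -3.80. Among lists with small changes, the falls of histone acyltransferases and bromodomain readers went from 5 to 1 without KO replicate 3 and to 3 under equal totals, equal medians or no intensity trend, and glycolysis had 5 rises and 6 falls without KO replicate 1, and the falls of the unfolded protein response went from 3 to 5 under quantile normalization. With a pseudocount of 5 the medians of the basement membrane, Notch, chemokine, and portal fibroblast and smooth muscle lists shrank to 0.38, 0.32, -0.29 and -1.48. A pseudocount of 0.1 took the chemokine median to -1.74. Of the genes named beside Hk2, the calls of Crebbp, Ep300, Htra2, Lum, Pdgfra, Pkm, Rrm2b, Serpinh1 and Tgfbr2 changed in at least 1 alternative, and none reversed. Htra2 was lost without ACT replicate 3 (limma adjusted p = 0.0526), Rrm2b was called lower without KO replicate 1 or 3, and Pdgfra, Serpinh1 and Tgfbr2 changed under quantile normalization alone. KO libraries 2 and 3 are the shallowest, and by the rough estimate above 3 reads are worth up to 0.494 CPM there, so levels below that are not distinct from 0.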
